A study of Drosophila melanogaster with 3 samples.

Results

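spen (split ends) and nito (spenito) are the fly genes of the SPEN family, and FMRP contacts on their RNAs were described here from a list of crosslink sites. They were looked for by symbol among the 1829 gene names of the deposited target list, and their sites were taken from the gene span and, for spen, from the gene's plus strand. Of these 2 genes, 1 was on the target list. spen was listed and carried 468 of the 60497 sites, and nito was not listed and had 2 sites in its span. The genes were chosen by their site numbers as well as by family, so those numbers are a description and carry no test.

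The sites come from enhanced CLIP, in which ultraviolet light fixes a protein to the RNA it touches and the RNA recovered with it is read next to RNA of the same size range from the lysate, the size-matched input. The series holds 3 libraries from whole adult Drosophila melanogaster: 2 FMRP immunoprecipitates on FLAG beads and 1 size-matched input, each from 200 flies, 100 male and 100 female. The labels give intestinal progenitor cells as the cell type of the immunoprecipitates and all cells as that of the input. No genotype, strain, age, driver or tag construct is given in the labels. Both deposited lists describe the series as a whole, so no value per library was used, the depth behind each site is unknown, and no spread between the immunoprecipitates can be given.

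SPEN proteins are nuclear RNA-binding proteins that join RNA recognition motifs at one end to a SPOC domain, a protein-binding module, at the other. spen encodes the large member, which fly genetics has placed in Notch, Wnt and EGFR-Ras signalling and in the control of intestinal stem cell number. nito encodes the short member, a subunit of the complex that writes N6-methyladenosine (m6A) into mRNA, with a role in splicing of Sex-lethal (Sxl) RNA in sex determination. FMRP, the fragile X protein, is an RNA-binding regulator of translation.

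FMRP sites on spen filled the 3′ part of the gene and left most of the 5′ part empty. All 468 sites in the span of spen (locus tag CG18497) lay on the plus strand of chromosome 2L, between positions 159727 and 202756, and none lay in the span of another gene. They made up 0.774% of all sites in the list (exact Clopper-Pearson 95% interval 0.705 to 0.847, counting error only). That interval treats neighbouring sites as independent. The gene spans 44366 nt, which gives 10.5 sites per kb of span. RNA abundance was not used here, so many contacts per RNA, more RNA per cell and more cells that express spen cannot be told apart.

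Sites more than 1000 nt apart were treated as separate groups, and spen then had 3 of them. The first held 7 sites in 59 nt, from 159727 to 159785, and began 695 nt from the 5′ end of the span. Its scores ran from 1.53 to 7.26 with a median of 4.88. The second held 3 sites between 162808 and 162950, with a median score of 0.947 and a highest score of 1.79. No site followed for 20891 nt, which is 47.1% of the span. The third group held the other 458 sites, 97.9% of the total, between 183841 and 202756. It ended 641 nt before the 3′ end of the span. The span was also cut into 10 bins of equal length. The 5 bins nearest the 3′ end held 458 sites (97.9%, 95% interval 96.1 to 99.0, treating neighbouring sites as independent). The 5 bins nearest the 5′ end held 10. The gene table used here gives no exons, so these positions were not assigned to exons, introns, coding sequence or untranslated regions.

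**Figure D1:**
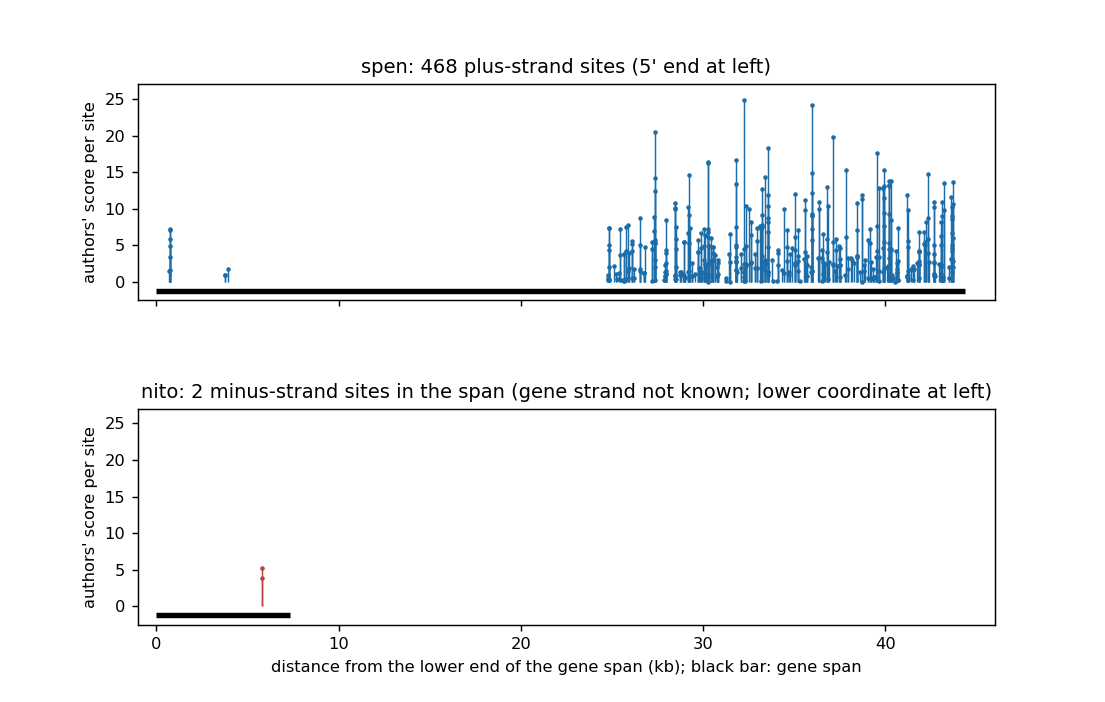
Each site of spen (upper plot) and of the nito span (lower plot) at its distance in kb from the lower end of the gene span, with the authors' score as the height of the line and the span as a black bar. The 458 sites of the large spen group fill the 3′ part of the gene after an empty stretch of 20891 nt, and the nito span holds 2 neighbouring sites.

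Within the large group the sites were spread over its whole length. The group covered 18916 nt and held 24.2 sites per kb, and its widest stretch without a site was 503 nt. In consecutive windows of 1 kb, counted from the first site of the group, the 18 complete windows held a median of 23 sites. The emptiest held 7 sites, from 189841 to 190840, and lay beside windows with 39 and 32. The fullest held 42 sites, from 198841 to 199840. Of the 10 bins of the span, the sixth held 39 sites, the seventh 108, the eighth 96, the ninth 103 and the last 112. The counts in the last 4 bins thus stayed between 96 and 112.

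**Figure D2:**
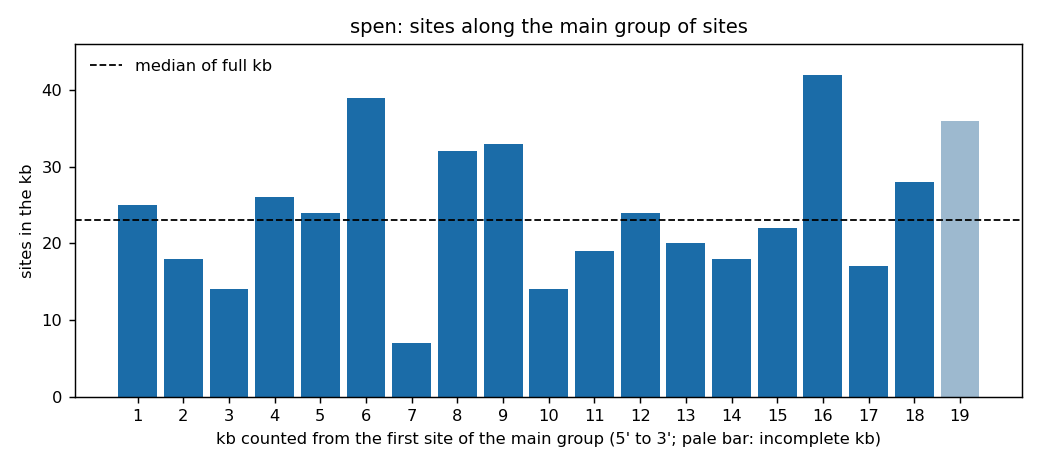
Number of sites in each consecutive kb of the large spen group, from 5′ to 3′, with the median of the 18 complete windows as a dashed line and the incomplete last window in a paler colour. Every kb holds sites, from 7 in the seventh window to 42 in the sixteenth.

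The scores of spen sites were moderate. Each site carries a score that the authors computed, in no stated unit, which serves here only to rank sites within the list. It ran from 0.00423 to 24.9 in spen, with a median of 3.03 and quartiles of 1.38 and 6.22. Over the whole list the median was 2.78 and the quartiles were 1.08 and 6.39. At or above the median of the list were 251 of the spen sites (53.6%, 95% interval 49.0 to 58.2). The top 10% of the list began at a score of 12.96, and 24 spen sites reached it (5.13%, 95% interval 3.31 to 7.54). Such a share was usual for genes with many sites: over the 121 genes with at least 100 sites the median was 5.61%, and 53 of them were below spen. These intervals treat neighbouring sites as independent.

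The highest scores of spen were scattered over the large group. The site at 191267 scored 24.9 and that at 195025 scored 24.2. They were followed by 20.4 at 186392, 19.9 at 196163 and 18.3 at 192582. The large group was also cut into 3 stretches of equal length from 5′ to 3′. The first had 147 sites with a median score of 2.63, the second 142 with 3.28 and the third 169 with 3.23. The quartiles of the 3 stretches overlapped (1.07 to 5.44, 1.91 to 7.22 and 1.39 to 6.82).

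Most spen sites had a site on a directly neighbouring base. Sites on consecutive bases formed 247 runs, of which 134 were single sites and 59 were pairs. The remaining 54 runs had at least 3 sites, and 334 of the 468 sites lay in a run of at least 2. The longest run covered 10 bases from 189327 to 189336, with scores from 0.762 to 16.3. The next covered 8 bases from 190848 to 190855, with a highest score of 16.6. The site with the highest score in spen lay in a run of 6 bases, from 191266 to 191271. Of the distances between one site and the next, 47.3% were of 1 nt, and the median distance was 3 nt. Such runs were usual: over the 121 genes with at least 100 sites the median share of 1 nt distances was 49.7%. In 82 of them that share was higher than in spen, and 17 had a longer longest run.

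By number of sites spen ranked the fourth of 2087 genes with at least 1 site in no other gene span. For this ranking the strand with more sites stood for the gene strand, since the gene table gives none. The giant cytoskeletal linker gene shot had 552 sites over 77.9 kb, the dioxygenase gene Tet 514 over 93.0 kb and the nesprin gene Msp300 469 over 106 kb. Below spen came the chromatin remodeller gene kis with 446 sites over 40.1 kb, the zinc finger homeobox gene zfh2 with 408 over 39.1 kb and the RNA-binding protein gene Syp with 342 over 54.0 kb. Per kb of span, spen had 10.5 sites, and the other values were 7.09 for shot, 5.53 for Tet, 4.42 for Msp300, 11.1 for kis, 10.4 for zfh2 and 6.33 for Syp. spen thus had more sites per kb of span than the 3 genes above it and about as many as kis and zfh2. Per kb of span it ranked 306 among the 2087 genes and 50 among the 121 genes with at least 100 sites.

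**Figure D3:**
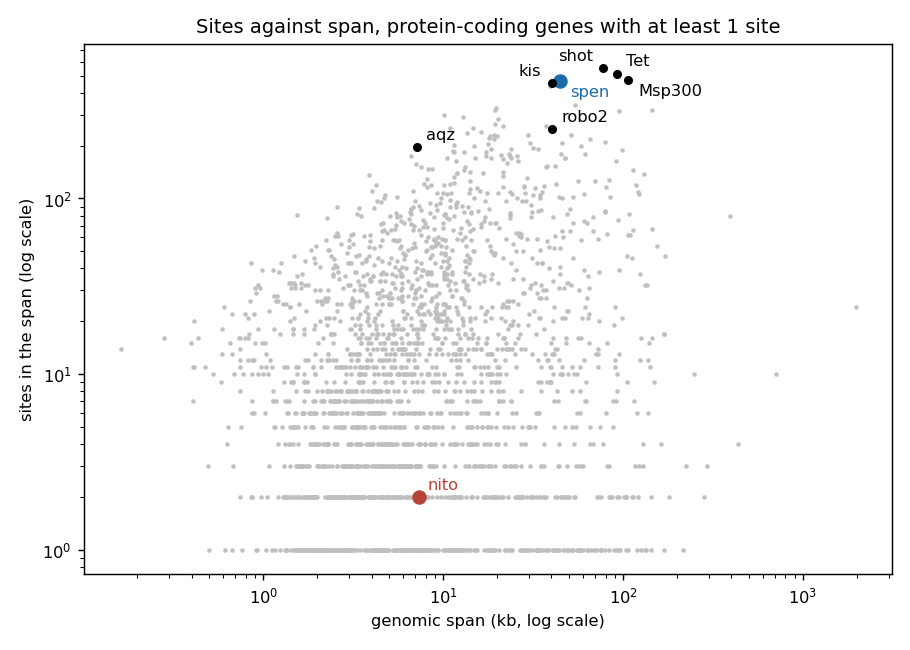
Number of sites in the span against genomic span in kb, both on log scales, for protein-coding genes with at least 1 site (grey points), with spen, nito and 6 other genes named. spen, at 468 sites over 44.4 kb, sits at the upper edge of the cloud, and nito, at 2 sites over 7.34 kb, near its lower edge.

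Among those 121 genes, spen stood near the low end in how far its sites were concentrated. Its densest window of 1 kb, from 198693, held 42 sites, or 8.97% of its total. The median gene had 23.9% of its sites in its densest kb, 119 genes had a higher share than spen, and Msp300 alone had a lower one, at 8.96%. In number of sites that window was ordinary: 42 against a median of 39. The share of a gene in 1 kb also falls as the number of its sites rises. The median score of spen, 3.03, was exceeded by 39 of the genes, whose median was 2.69, and its highest score, 24.9, by 73 of them. Its longest stretch between neighbouring sites covered 47.1% of the span, against a median of 26.3%, and 29 genes had a larger share. Empty stretches at the ends of a span were not counted. Eip75B, with all its sites in the last of 10 bins, thus had a share of only 2.78%.

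The 5 target genes with at least 100 sites whose shares over the 10 bins of the span were closest to those of spen were mura, shot, raskol, PAN3 and Blimp-1. Likeness was the sum of absolute differences in percentage points over the bins, which ranged from 20.8 to 182 over 120 genes, with a median of 83.2. It was 20.8 for mura, which encodes a RING-type ubiquitin ligase, and 25.1 for shot. It was 25.5 for raskol, a gene of a Ras GTPase-activating protein, 30.4 for PAN3, a deadenylase subunit gene, and 32.4 for Blimp-1, which encodes a zinc finger repressor. In the 5 bins nearest the 5′ end, mura had 7.54% of its sites, shot 1.09%, PAN3 0.917% and raskol and Blimp-1 none. The sites of these genes were read along the strand that held them.

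**Figure D4:**
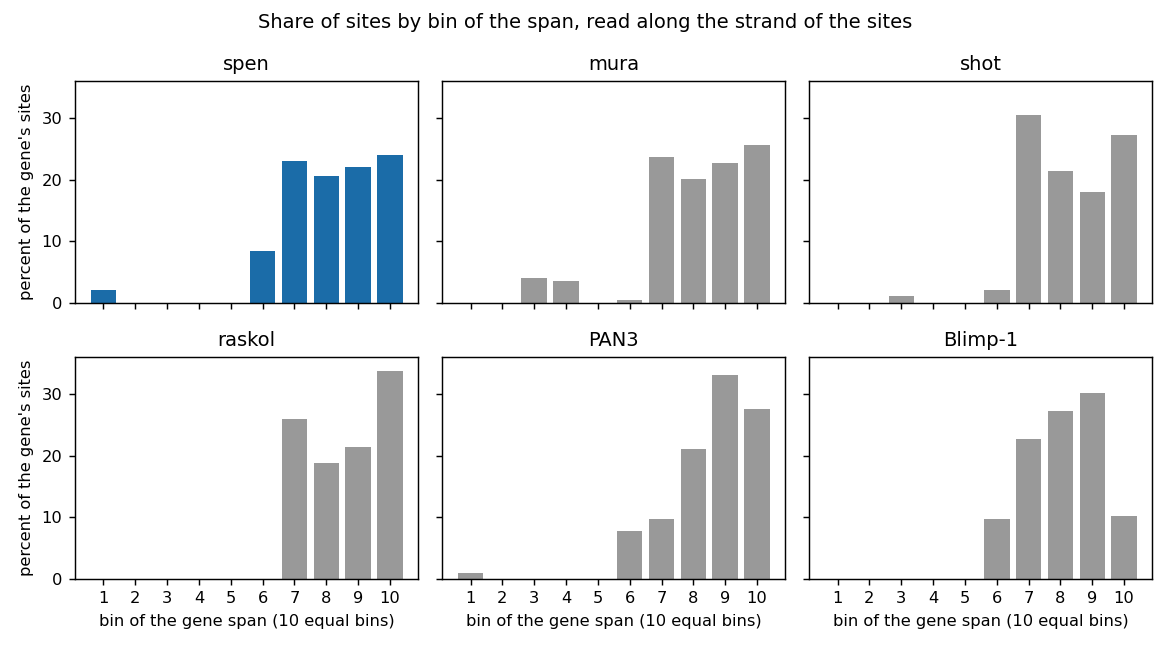
Percent of each gene's sites in each of 10 equal bins of its span, from 5′ to 3′ along the strand of the sites, for spen and the 5 genes with the closest profiles. In spen the last 4 bins hold between 20.5% and 23.9% each, and the second to the fifth hold none.

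The genes next to spen had no sites. CG33635, which lies 368 nt away on one side, and the mitochondrial ribosomal protein gene mRpL10, 382 nt away on the other, had 0 sites and were not targets. Further away on that side lay kis, 7338 nt from spen, with 453 sites in its span. None of the 468 spen sites fell within a neighbouring gene.

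nito (locus tag CG2910) had few sites. Its span of 7343 nt on chromosome 2R held 2 sites, at 7968251 and 7968252, with scores of 3.87 and 5.23. Both lay on the minus strand. The gene table gives no strand for nito, so whether they are on its strand was not determined. Both positions also lie in the 1677 nt that nito shares with CG8726, and these were the only 2 sites in the span of CG8726. CG8726 was on the target list and nito was not. No site lay in the part of nito outside other spans, nor in CG14763, whose 1996 nt lie within nito. The nearest sites outside the span were 19886 nt away on one side and 101939 nt away on the other.

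The spans of the family members differed in number and density of sites. The span of spen had 468 sites against 2 in that of nito, 247 runs against 1, and 10.5 sites per kb against 0.272. Counting only sites in no other gene span, the numbers were 468 and 0. Both sites in the nito span also lie in CG8726 and are not placed on nito RNA by these lists. Their scores were above the median of spen, 3.03, and below its upper quartile of 6.22. With no values per library, the difference between the members could not be tested.

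Genes of similar length place both members. Of 137 other protein-coding genes with a span within 10% of that of spen, 44 were targets (32.1%) and 63 had a site in the span. Their highest counts were 453 in kis and 247 in the Slit receptor gene robo2, and the 44 targets had a median of 20.5. Of 432 other genes with a span within 10% of that of nito, 100 were targets (23.1%) and 142 had a site (32.9%). Genes of that length reached 197 sites in aqz and 175 in the splicing factor gene Sf3b3. Most genes of the length of nito thus had no site in their span. All these counts include sites on either strand and in spans shared with other genes. On the strand with more sites and in no other span, kis had 446 sites, robo2 174 and aqz 156, beside 468 in spen. Sf3b3 had fewer than 100 such sites.

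The m6A machinery around nito had about the share of targets found over all genes. Among all 13962 protein-coding genes, 11.1% were on the target list, 16.4% had at least 1 site in the span and 10.9% had at least 5. The 9 genes of the m6A list, nito included, span 1.53 to 7.34 kb. Of them, 1 was a target (11.1%), a share equal to that background, and 2 had a site in the span. The target was Ythdf, which encodes the cytoplasmic m6A reader, with 13 sites on the minus strand, a median score of 1.69 and a highest score of 8.06. The catalytic and companion subunit genes Mettl3 and Mettl14 had 0 sites. The writer complex genes fl(2)d, vir, Flacc and Hakai and the nuclear reader gene Ythdc1 also had 0.

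Of 7 genes on the list of Sex-lethal and its splicing partners, 2 were targets (28.6%), beside 11.1% of all protein-coding genes. Sxl, the sex determination switch and an RNA-binding protein gene, had 81 sites, all on the minus strand, with a median score of 3.90 and a highest of 21.2. Of these sites, 76 were in no other gene span. The splicing regulator gene tra2 had 12, of which 2 were in no other gene span. snf, pps, tra, U2af38 and U2af50 had 0, as did most protein-coding genes.

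Of 8 genes of the Notch pathway and its nuclear complexes, 5 were targets (62.5%, beside 11.1% of all protein-coding genes). The ligand gene Dl had 83 sites and the receptor gene N had 2 and was not a target. Of the factors that act at Notch target genes in the nucleus, the DNA-binding protein gene Su(H) and the coactivator gene mam had 0. The co-repressor genes H, gro and CtBP had 38, 38 and 67, and the acetyltransferase gene nej had 167. All 3 co-repressor genes were targets. Their median scores were 1.99 for H, 2.30 for gro and 3.39 for CtBP, and that of nej was 2.29.

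In the Wnt pathway 7 of 13 genes were targets (53.8%, beside 11.1% of all protein-coding genes). The ligand gene wg and the receptor gene fz had 0 sites, and the receptor gene fz2 had 75 and the co-receptor gene arr 19. Among cytoplasmic components, dsh and Apc2 had 0, Axn had 16 and the kinase gene sgg 21, of which 8 each were in no other span. The sgg sites lay on both strands, 13 on the plus and 8 on the minus strand. Apc had 13 and was not a target. Of the nuclear components, the beta-catenin gene arm had 16, lgs 29 with a highest score of 33.6, the DNA-binding factor gene pan 2 and pygo 1. pygo was not a target.

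EGFR-Ras genes had 7 targets of 12 (58.3%, beside 11.1% of all protein-coding genes). The ligand gene spi had 60 sites and S, whose product escorts the ligand, had 118, and the protease gene rho had 0. The receptor gene Egfr had 151, of which 136 were in no other span. In the kinase cascade, phl (Raf) had 16, of which 10 were in no other span. Ras85D had 2 and was not a target, and Dsor1 and rl had 0. The feedback inhibitor gene sty had 170 with a median score of 7.30, beside 3.03 in spen. Of the transcription factor genes, cic had 229, pnt 16 and aop 0. Most sites of this list thus lay in cic, sty, Egfr, S and spi, and few lay in the kinase cascade genes. Neither span nor RNA abundance was taken into account.

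Nuclear receptor and co-repressor genes had 3 targets of 7 (42.9%, beside 11.1% of all protein-coding genes). SPEN proteins of mammals bind the co-repressors of nuclear receptors, and the fly co-repressor gene Smr had 58 sites. Sin3A, a scaffold of histone deacetylase complexes, had 203. The ecdysone receptor gene EcR had 63, of which 54 were in no other span, and 57 of the 63 lay on the minus strand. The highest score in the EcR span was 139. The partner gene of EcR, usp, had 6, none of them outside other spans, and was not a target. HDAC1, HDAC3 and ebi had 0. Over all 6 lists, which share no gene, 25 of 56 genes were targets (44.6%, beside 11.1%) and the median number of sites was 2. The highest count in these lists was 229, in cic, against 468 in spen. The lists were read against the shares of all protein-coding genes and were not tested. They were not matched for span, and targets made up 32.1% of genes of the length of spen and 23.1% of those of the length of nito.

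**Figure D5:**
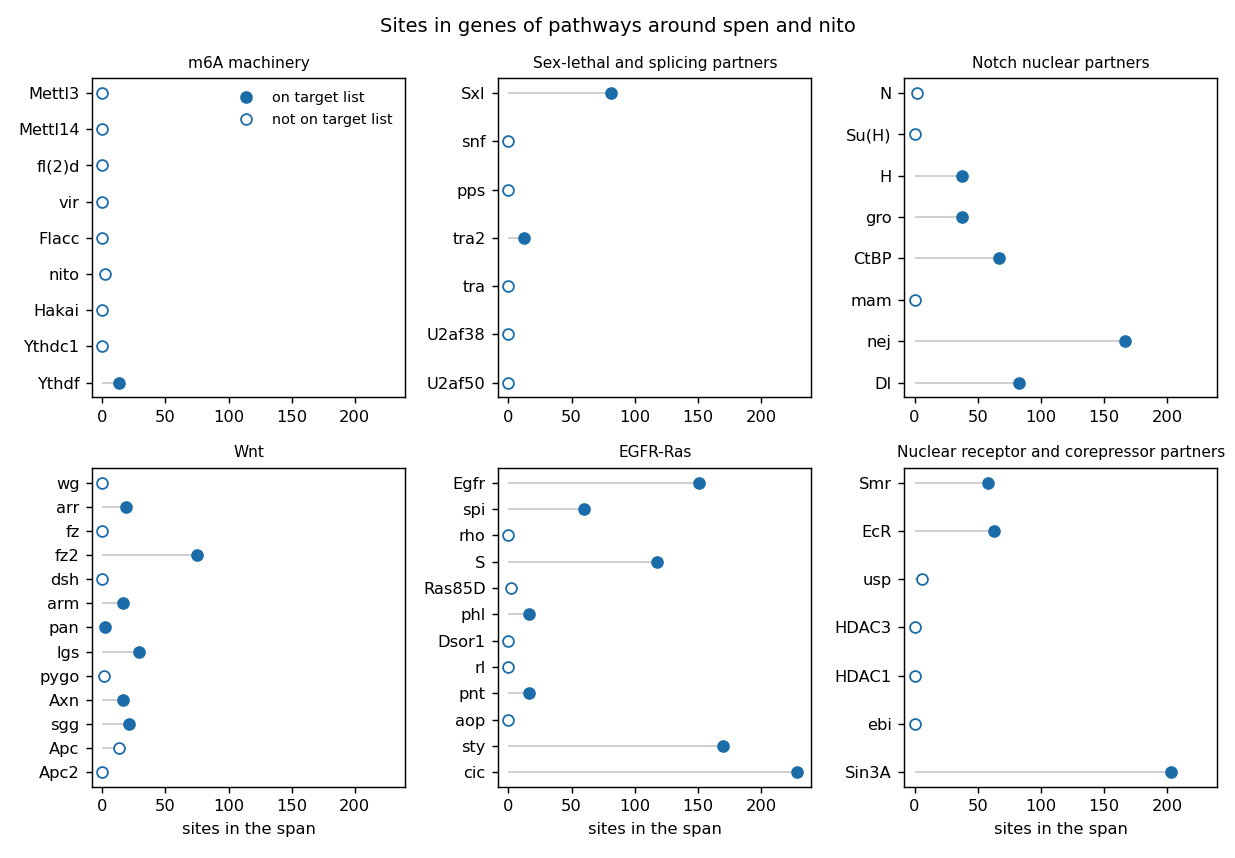
Number of sites in the span of each gene of the 6 lists, with filled points for genes on the target list and open points for the others. The m6A list holds 1 filled point, Ythdf at 13 sites, and the other lists reach between 75 and 229 sites.

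The labelled cell type was set against its markers. Of 7 intestinal progenitor genes, 5 were targets (71.4%, beside 11.1% of all protein-coding genes): zfh2 with 436 sites in its span, hdc with 313, Dl with 83, esg with 77 and Sox21a with 12. klu had 1 and Su(H) 0. Genes that mark other cells were also on the target list, with pros (enteroendocrine) at 85 sites and Jon65Aiii (enterocyte) at 32. Also listed were elav (neuron) at 24, vas (germline) at 21 and Mhc (muscle) at 20. Targets were thus 1 of 3 genes each for the enteroendocrine, enterocyte and germline markers, and 1 of 2 each for muscle and neuron. The share of targets was above 11.1% in every marker list, but in a list of 2 or 3 genes 1 target is enough for that. These shares therefore do not rank the cell types. The marker lists are short and were not tested. All sites in elav and vas lay in spans shared with other genes. The second neuron marker, Syt1, had 2 sites and was not a target. AstC, Tk, nub, Myo31DF, Mef2, osk and nos had 0. In which cells the spen RNA of these lists was bound was not tested.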

How the data were processed

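The authors deposited 2 lists that cover the series as a whole: a list of sites of 1 nt with a score and a constant state code (an other value, 3 in every row), and a list of target gene names. Not given in the sources used here are the site caller, genome build, annotation, treatment of the immunoprecipitates and input, and target rule. Per the submitters' processing notes, the tools included STAR 2.7.3a, cutadapt 2.9, SAMtools 1.10, DESeq2 and UMI-tools, whose roles are not stated. The score was deposited without a stated unit.

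Gene spans came from an NCBI RefSeq table of Drosophila Release 6, which has no strands or exons. Of the target names, 1753 matched a symbol, 65 a single synonym and 2 a locus tag, and 9 with no single match were left out. Of 1820 matched targets, 1816 held a site in their span, against 459 and 457 after a shift of all sites by 100000 nt. The members, lists and comparison genes were chosen with earlier results of these data known. Named genes are the members, the genes of the 6 lists and of the marker lists, the 3 genes next to spen in rank on each side, overlapping and adjacent genes, kis, the 5 closest profiles, and the genes with most sites among those of similar span. The grouping at 1000 nt and the comparisons by span and with genes of at least 100 sites were chosen after seeing the data. Python 3.11.15, pandas 2.3.3, numpy 2.4.6 and scipy 1.17.1 were used, and the counting steps were tested on simulated data. No test between groups was made.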

Additional observations from a re-analysis of the deposited data

How the results depend on the processing

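No paired analysis was possible because the lists hold no values per library, and for the same reason no replicate could be left out. Alternatives that need exons were not run, since no exon annotation was used here. With only scores at or above the list median, spen had 251 sites (5.66 per kb of span) in place of 468 (10.5), and with runs as units it had 5.57 per kb. The 2 nito sites became 0 when sites in other spans were left out, and with runs as units the nito density was 0.136 per kb. The median spen score was 3.66 over the highest site of each run, against 3.03. Joining sites up to 50 nt apart gave 116 runs in place of 247 and a longest run of 17 sites in place of 10. With at least 1 site as the criterion the m6A list had 2 genes, Ythdf and nito, in place of 1. The share of spen sites in the 5 bins nearest the 3′ end was 97.6% over the highest site of each run and 98.0% with scores at or above the list median, and the longest empty stretch was 20891 and 24084 nt. Depth behind the sites is unknown, so the absence of sites from nito or from the m6A writer genes does not show absence of contact.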

Other observations

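Small numbers of sites did not by themselves decide whether a gene was on the target list. CG8726, whose 2 sites are shared with nito, and the Wnt factor gene pan, with 2 sites of its own, were listed. The receptor gene N and Ras85D, also with 2 sites each in no other span, were not. The highest score was 5.23 in CG8726 and 10.4 in pan, against 1.62 in N and 0.891 in Ras85D. The neuron marker gene Syt1, with 2 sites of which 1 was in no other span, had a highest score of 68.9. It was not listed either, but which of its 2 sites carries that score was not determined, and 1 of them lies in another span. Whether the highest score separates listed from unlisted genes with 2 sites was not tested. Apc, with 13 sites and a highest score of 5.78, was not listed, and Ythdf, with 13 sites and a highest score of 8.06, was. These genes were singled out after their values were seen, and the rule behind the target list is not given in the sources used here.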
